A study of Mus musculus with 12 samples.

Results

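The genes described here are 8 contractile genes of vascular mural cells, measured by RNA-seq in the retinas of 12 mice. They are Acta2, Tagln, Myh11, Cnn1, Tnnt2, Des, Myl9 and Mylk, out of 36131 genes in the count table, and each symbol was matched to its Ensembl row. All mice were C57BL/6J wildtype and 18 days old (P18), and each retina gave 1 library. RA-PBS mice (animals 1 to 4) were kept in room air and given PBS. O2-PBS mice (animals 5 to 8) were placed in 75% O2 at P7 and returned to room air at P12, the oxygen-induced retinopathy model, and were given PBS. O2-IC100 mice (animals 9 to 12) had the same oxygen exposure and were given 10 µg/g of IC100, a humanized antibody against the inflammasome adaptor ASC. Per the labels, placebo or IC100 was injected intraperitoneally on P12, P14 and P16. Whole retinas were homogenised, so every value is a mean over all retinal cells, and fewer cells of a type cannot be told apart from less RNA per cell.

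Mural cells are the pericytes that wrap capillaries and the smooth muscle cells that ring arterioles and venules. In smooth muscle, calcium activates myosin light chain kinase, which phosphorylates the regulatory light chain of myosin so that myosin can pull on actin filaments. Troponin, by contrast, is the calcium switch of striated muscle, and Tnnt2 encodes the troponin T of the heart. In oxygen-induced retinopathy, high oxygen removes capillaries from the central retina, and after the return to room air new vessels grow towards the vitreous.

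The genes were chosen with earlier values of the O2-PBS against RA-PBS comparison known. Tnnt2 was among the genes with the largest rise in it, and mural cell genes had been seen to be higher there. Their values in that comparison are therefore given as a description, with no p-value, and the thresholds they pass there are no evidence of a difference. The comparisons of O2-IC100 share its groups and are not independent of it. Genes chosen as high in O2-PBS and low in RA-PBS are by that choice likelier to lie below O2-PBS and above RA-PBS in O2-IC100. The adjusted p-values of those comparisons do not allow for this.

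The promoters of the members whose levels differed most between the groups are shown first, because the textbook regulators of these genes bind there. Serum response factor binds CArG boxes in smooth muscle genes, and TEAD factors bind the M-CAT box, an element long studied in the cardiac troponin T promoter. RefSeq entries of the GRCm38.p6 build were found for 6 of the 8 genes. The 300 bases run from 250 before the gene start to 50 after it, on the strand of the gene. Capitals mark matches to the CArG box with at most 1 mismatch and to the M-CAT box CATTCCT on either strand, and the E box CAGCTG in the promoter of Des, where alone it is marked.
Acta2, chr19:34255324-34255623, minus strand: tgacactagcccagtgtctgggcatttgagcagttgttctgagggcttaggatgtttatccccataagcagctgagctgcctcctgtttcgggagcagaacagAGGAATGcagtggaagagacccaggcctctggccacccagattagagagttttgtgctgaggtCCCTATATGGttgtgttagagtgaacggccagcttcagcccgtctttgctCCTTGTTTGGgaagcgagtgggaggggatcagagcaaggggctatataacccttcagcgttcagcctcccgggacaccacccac
Tnnt2, chr1:135836084-135836383, plus strand: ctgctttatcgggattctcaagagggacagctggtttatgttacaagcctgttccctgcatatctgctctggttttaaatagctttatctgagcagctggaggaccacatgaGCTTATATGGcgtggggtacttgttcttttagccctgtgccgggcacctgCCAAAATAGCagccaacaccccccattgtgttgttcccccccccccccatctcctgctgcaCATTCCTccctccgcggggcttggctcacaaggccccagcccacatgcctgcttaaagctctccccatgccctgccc
Des, chr1:75360042-75360341, plus strand: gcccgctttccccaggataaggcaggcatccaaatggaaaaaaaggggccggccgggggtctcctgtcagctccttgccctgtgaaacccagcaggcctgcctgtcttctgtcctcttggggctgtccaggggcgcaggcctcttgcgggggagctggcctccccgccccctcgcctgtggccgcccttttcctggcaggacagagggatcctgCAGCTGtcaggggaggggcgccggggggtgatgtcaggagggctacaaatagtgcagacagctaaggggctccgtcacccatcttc
Myl9, chr2:156775214-156775513, plus strand: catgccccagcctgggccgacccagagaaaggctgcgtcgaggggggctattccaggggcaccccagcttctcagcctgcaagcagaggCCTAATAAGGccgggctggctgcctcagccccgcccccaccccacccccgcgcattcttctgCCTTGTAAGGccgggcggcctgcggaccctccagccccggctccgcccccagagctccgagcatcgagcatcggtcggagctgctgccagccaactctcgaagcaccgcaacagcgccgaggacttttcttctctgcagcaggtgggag
The Tnnt2 window held CATTCCT 27 bases before the start, and the Acta2 window held its reverse complement AGGAATG 147 bases before the start. This M-CAT sequence was in 5.36% of 32851 RefSeq promoters of the same length. These leave out 1 chromosome, and the shares of all promoters below are shares of these 32851. A CArG box with no mismatch stood only in the Myl9 window among the members' promoters (CCTAATAAGG, 161 bases before the start), against 1.63% of all promoters. With 1 mismatch allowed, the Acta2 window held CCCTATATGG and CCTTGTTTGG, the Tnnt2 window GCTTATATGG and CCAAAATAGC, and the Myl9 window also CCTTGTAAGG. That looser form was in 21.1% of all promoters. The E box CAGCTG lay 36 bases before the start of Des, 182 before that of Acta2 and 223 and 157 before that of Tnnt2, and was in 16.3% of all promoters. These matches are letters in a window and not evidence of binding. A second Tnnt2 entry and those of Cnn1 and Mylk held none of the CArG or M-CAT forms.

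Total counts per retina ranged from 14907143 to 24438082. The library of O2-IC100 animal 10 stood apart. Lens crystallin genes took 59.0% of its counts (95% Wilson interval 58.96 to 59.00%, counting error only), against 1.26 to 4.51% in RA-PBS animals 2, 3 and 4 and at most 0.0204% in the other 8 libraries. Its rod genes took 0.351% of the counts, against 4.12 to 5.12% elsewhere. The 10 listed genes of the pigmented iris, ciliary body and retinal pigment epithelium summed to 8662 CPM in it (CPM, counts scaled to a common library size by TMM in edgeR), against 59.3 to 273.3 in the other 11. Its TMM scaling factor was 0.324, against 1.07 to 1.15 in the other 11. Its CPM are therefore raised well above its counts taken as a share of the total. The comparisons were fitted with and without animal 10 for these reasons. Y-linked genes were low in O2-PBS animals 5, 6 and 7, in RA-PBS animal 4 and in O2-IC100 animal 10 (4.04 to 9.85 CPM for 4 genes together, against 223.3 to 324.0 in the rest), and the sex of the mice is not given in the labels. Without animal 10 every O2-IC100 retina was high, and in O2-PBS only animal 8 was. Y-linked level thus nearly follows the comparison of O2-IC100 with O2-PBS in that fit.

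Levels were computed from the expected counts that the authors deposited. Per kilobase values divide by the union of all annotated exons of a gene, 7752 bases for Tnnt2. That union can exceed the length of the transcripts present and so understate a level, and the order of the members below holds for this measure only. Mylk was the most abundant member in RA-PBS at 23.4 ± 5.53 CPM per kb (SD, n = 4). Myl9 followed at 7.65 ± 2.68, Acta2 at 4.61 ± 2.62 and Tagln at 2.59 ± 0.451, and the ranges over the animals overlapped between Myl9 and Acta2 and between Acta2 and Tagln. Myh11 at 0.536 ± 0.195 and Des at 0.390 ± 0.0421 overlapped as well. Tnnt2, at 0.0925 ± 0.0778, and Cnn1, at 0.0516 ± 0.0501, were the lowest. In O2-PBS the order was the same from Mylk to Tagln, but Tnnt2 at 2.27 ± 0.735 CPM per kb had a higher mean than Des at 1.41 ± 0.209, with overlapping ranges, and both lay wholly above Myh11 at 0.628 ± 0.128. The defining smooth muscle genes Myh11 and Cnn1 were scarce in every retina but animal 10 (Myh11) or in all of them (Cnn1), with Myh11 at 1.54 to 5.99 CPM without animal 10 and Cnn1 at 0.554 CPM at most in all 12.

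**Figure D1:**
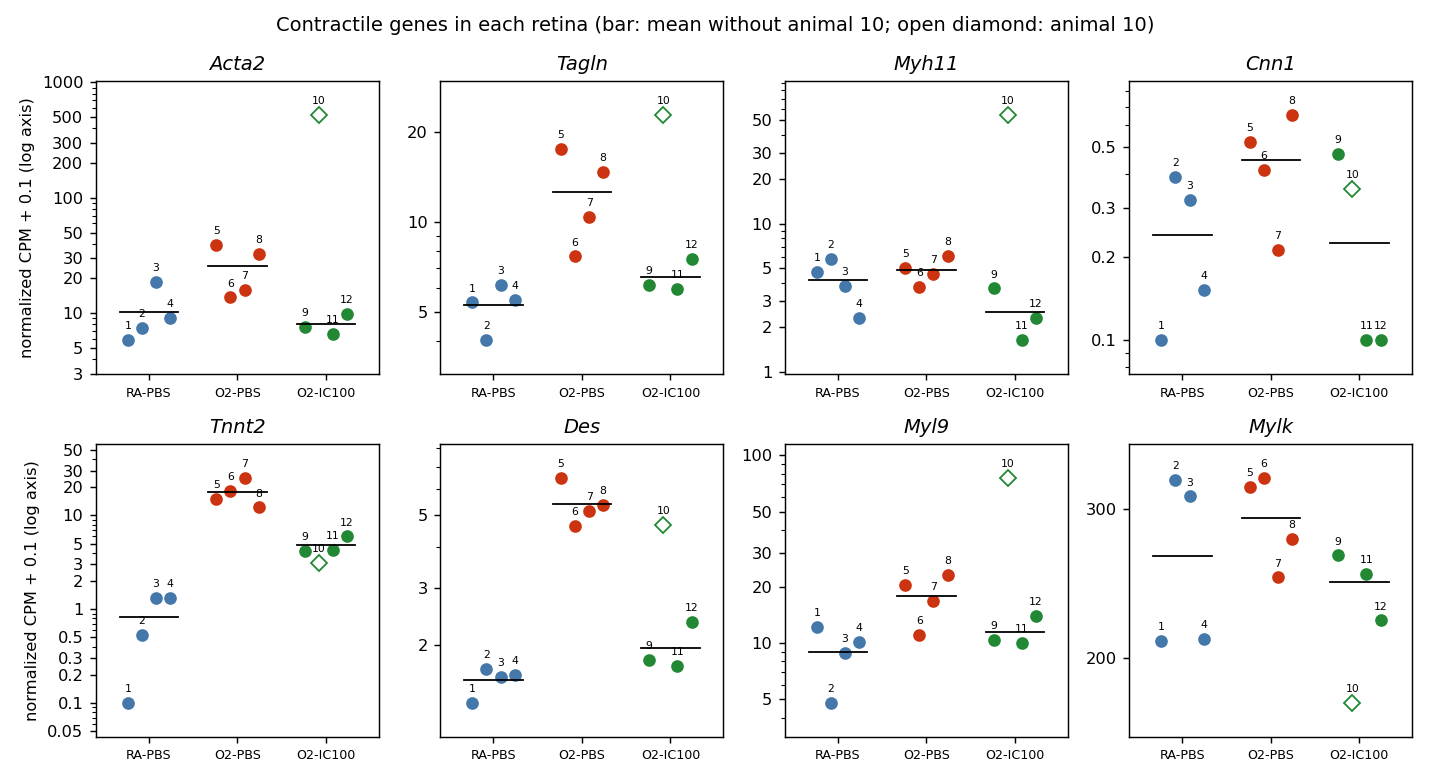
Normalized CPM plus 0.1 on a log axis for each of the 8 contractile genes, 1 point per retina with its animal number, grouped as RA-PBS, O2-PBS and O2-IC100; bars are group means without animal 10, drawn as an open diamond. In these values Tnnt2 forms 3 separate levels, and animal 10 lies above all other retinas for Acta2, Tagln, Myh11 and Myl9 and below them for Mylk. For Tagln, Myl9 and Des, and for Tnnt2 against RA-PBS, the position of animal 10 depends on its scaling factor of 0.324.

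Tnnt2 had the largest log2 difference of the members between O2-PBS and RA-PBS. Its counts were 0, 9, 22 and 23 in RA-PBS animals 1 to 4, then 246, 349, 447 and 218 in O2-PBS animals 5 to 8, and 76, 24, 87 and 120 in O2-IC100 animals 9 to 12. As normalized CPM these were 0, 0.434, 1.22 and 1.21 in RA-PBS, 14.8, 18.2, 25.3 and 12.1 in O2-PBS, and 4.05, 3.03, 4.18 and 5.88 in O2-IC100. In these normalized values all 3 groups were separate, with O2-IC100 between the others and animal 10 included. For animal 10 this rests on its scaling factor of 0.324. Its 24 counts of 24438082 were a smaller share than the 22 of 16843970 and 23 of 17790585 in RA-PBS animals 3 and 4. The difference of O2-PBS from RA-PBS was 4.61 ± 0.50 on the log2 scale (SE, without animal 10; 4.61 ± 0.69 with all 12). It was 7.85 ± 0.78 with the crystallin level as a covariate, without animal 10. That covariate nearly follows the groups: crystallin was low in every O2 retina of the fit, and in RA-PBS only in animal 1. The value therefore leans on animal 1, with its 0 Tnnt2 counts, and does not show a larger difference. A count of 0 in RA-PBS animal 1 allows up to 0.182 CPM of its total.

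Tnnt2 was lower in O2-IC100 than in O2-PBS by a log2 fold change of -2.03 ± 0.60 with all 12 animals, which did not pass the thresholds (quasi-likelihood F test of edgeR, Benjamini-Hochberg adjusted p = 0.287 over all genes tested). Without animal 10 it was -1.89 ± 0.45 and passed narrowly (edgeR, adjusted p = 0.0991). Here and below a call needs all 3 thresholds of the study, an adjusted p-value below 0.1, an unadjusted one below 0.05 and a change of 1.5-fold or more. With Y-linked expression as a covariate the Tnnt2 value was -1.19 ± 0.53 and was no longer called (edgeR, adjusted p = 0.208). Leaving out 1 more of the 11 animals kept the call in 4 of 11 fits. Against RA-PBS, Tnnt2 stayed higher in O2-IC100 by 2.72 ± 0.53 without animal 10 (edgeR, adjusted p = 0.0441) and was at 2.58 ± 0.65 with it, not called (edgeR, adjusted p = 0.356). With the crystallin covariate, without animal 10, that value was 5.97 ± 0.85, and it leans on RA-PBS animal 1 in the same way.

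Des, the intermediate filament desmin that ties contractile filaments together in muscle and in pericytes, had the second largest difference between O2-PBS and RA-PBS. It was at 1.23, 1.59, 1.5 and 1.53 CPM in RA-PBS and at 6.39, 4.54, 5.03 and 5.27 CPM in O2-PBS. In O2-IC100 animals 9, 11 and 12 it was at 1.70, 1.63 and 2.26 CPM, just above the RA-PBS animals, and in animal 10 at 4.54 CPM, within the O2-PBS range. That place of animal 10 rests on its scaling factor of 0.324. Its 36 Des counts of 24438082 were a smaller share than the 33 of 19146287 in RA-PBS animal 2. The O2-PBS retinas lay above every RA-PBS retina, by 1.85 ± 0.20 on the log2 scale without animal 10 and 1.85 ± 0.32 with it. Des fell in O2-IC100 against O2-PBS by a log2 fold change of -1.49 ± 0.22 without animal 10 (edgeR, adjusted p = 0.0262), and with animal 10 the value was -1.10 ± 0.31 and not called (edgeR, adjusted p = 0.287). It remained called with the Y-linked covariate (-1.45 ± 0.29, edgeR, adjusted p = 0.0962) and in 8 of 11 fits that left out 1 more animal. Its difference between O2-IC100 and RA-PBS was 0.36 without animal 10 (edgeR, adjusted p = 0.463) and 0.75 with it (edgeR, adjusted p = 0.374).

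Acta2, smooth muscle alpha actin, is the thin filament on which myosin pulls. It was at 5.72, 7.29, 18.5 and 8.95 CPM in RA-PBS, at 38.9, 13.6, 15.9 and 32.8 CPM in O2-PBS, and at 7.56, 523.9, 6.48 and 9.71 CPM in O2-IC100 animals 9 to 12. O2-PBS animals 5 and 8 were highest apart from animal 10, while RA-PBS animal 3, the RA-PBS retina with the most crystallin RNA, lay above O2-PBS animals 6 and 7. The groups of O2-PBS and RA-PBS overlapped, with a log2 difference of 1.32 ± 0.41 without animal 10 (± 1.25 with it) and 1.78 when animal 3 was left out as well. Against O2-PBS, the O2-IC100 value was 2.43 with animal 10 (edgeR, adjusted p = 0.334) and -1.66 ± 0.46 without it (edgeR, adjusted p = 0.142). The direction thus turned on 1 library, although the 3 remaining O2-IC100 retinas lay below all 4 O2-PBS retinas.

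Tagln, transgelin or SM22, is an actin-binding protein of smooth muscle. It was at 5.27, 3.91, 6.05 and 5.37 CPM in RA-PBS, at 17.5, 7.56, 10.3 and 14.6 CPM in O2-PBS and at 6.07, 22.7, 5.86 and 7.40 CPM in O2-IC100. Every O2-PBS retina was above every RA-PBS retina, by 1.28 ± 0.23 on the log2 scale without animal 10 and 1.28 ± 0.44 with it. The 3 O2-IC100 retinas other than animal 10 lay below all O2-PBS retinas, with a log2 fold change of -0.94 ± 0.25 that missed the threshold (edgeR, adjusted p = 0.117). With animal 10 it was -0.27 (edgeR, adjusted p = 0.750). The same O2-PBS retinas, animals 5 and 8, were highest for Tagln, Acta2 and Myl9.

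Myl9, a regulatory light chain of myosin, was at 12.1, 4.68, 8.77 and 10.1 CPM in RA-PBS, at 20.3, 10.9, 16.7 and 23.0 CPM in O2-PBS and at 10.3, 76.1, 9.89 and 13.8 CPM in O2-IC100. O2-PBS animal 6 was below RA-PBS animal 1, and the other 3 O2-PBS retinas were above all of RA-PBS. The log2 difference of O2-PBS from RA-PBS was 0.99 ± 0.27 without animal 10 and 0.99 ± 0.63 with it. Against O2-PBS, O2-IC100 was at -0.63 without animal 10 (edgeR, adjusted p = 0.259) and at 0.62 with it (edgeR, adjusted p = 0.590).

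Myh11, the smooth muscle myosin heavy chain, overlapped between O2-PBS and RA-PBS. It was at 4.66, 5.70, 3.72 and 2.21 CPM in RA-PBS and at 4.94, 3.65, 4.52 and 5.99 CPM in O2-PBS, and the log2 difference was 0.23 ± 0.30 without animal 10 and 0.23 ± 0.95 with it. In O2-IC100 it was at 3.57, 54.4, 1.54 and 2.21 CPM. The 3 retinas other than animal 10 lay below the O2-PBS animals, by a log2 fold change of -0.96 ± 0.34 that was not called (edgeR, adjusted p = 0.185). With animal 10 the value was 1.66 (edgeR, adjusted p = 0.367).

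Mylk, the myosin light chain kinase, had the highest level per kilobase of the members in every retina but animal 10. Its level was at 209.7, 324.7, 310.4 and 210.7 CPM in RA-PBS, at 318.4, 326.7, 249.1 and 276.6 CPM in O2-PBS and at 264.4, 177.0, 251.2 and 221.6 CPM in O2-IC100. The groups overlapped, and none of its log2 differences was called (0.15 ± 0.15 for O2-PBS against RA-PBS and -0.24 for O2-IC100 against O2-PBS without animal 10, the latter with edgeR adjusted p = 0.407). Animal 10 had the lowest Mylk level of all retinas, where it had the highest normalized Acta2, Tagln, Myh11 and Myl9. For Tagln and Myl9 that rank rests on its scaling factor. Of its 24438082 total counts, 180 were Tagln and 603 Myl9. These were smaller shares than 290 of 14907143 (Tagln, O2-PBS animal 5) and 415 of 16007229 (Myl9, O2-PBS animal 8). Cnn1, calponin 1, which binds actin and restrains myosin in smooth muscle, had 0, 6, 4 and 1 counts in RA-PBS, 7, 6, 2 and 10 in O2-PBS and 7, 2, 0 and 0 in O2-IC100. It did not pass the filter on low counts and was not tested. For scale, 3 counts were 0.123 to 0.201 CPM of a library's total.

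**Figure D2:**
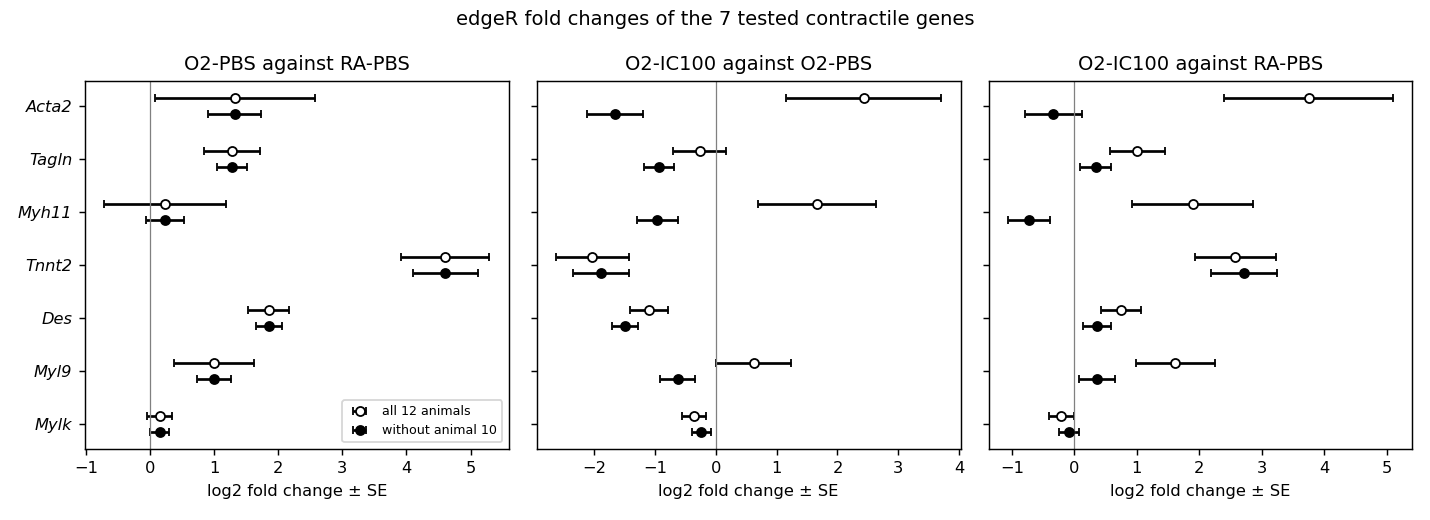
Log2 fold change with its standard error for the 7 tested contractile genes in the 3 comparisons, from edgeR fits of all 12 animals (open) and without animal 10 (filled). In O2-PBS against RA-PBS both fits give the same values with wider errors in the fit of 12, while in both O2-IC100 comparisons Acta2 and Myh11 change sign with animal 10, as does Myl9 against O2-PBS.

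Counted together, 5 of the 7 tested members were called higher in O2-PBS than in RA-PBS without animal 10 (Acta2, Tagln, Tnnt2, Des and Myl9), where 6.27% of all 16688 genes were called and 4.09% were called higher. With all 12 animals 2 of 7 were called (Tnnt2 and Des), against 0.807% of 16489 genes. Nothing is read from these counts, since the genes were chosen on that contrast. The Acta2 call was kept in 3 of 11 fits that left out 1 more animal. O2-PBS lay wholly above RA-PBS for 3 of the 7 (Tagln, Tnnt2 and Des), as it did for 7.8% of all genes in the fit without animal 10.

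In O2-IC100 against O2-PBS, 2 of 7 members were called lower without animal 10 (Tnnt2 and Des), against 0.947% of all genes called and 0.731% called lower. With all 12 animals edgeR called 0 members and 0 of 16489 genes, although 2784 genes had an unadjusted p-value under 0.05 and DESeq2 called 112. DESeq2 called 2 members with all 12 animals, where it gave Acta2, Myh11 and Myl9 no p-value, and 5 without animal 10. The 7 members were all at negative values without animal 10 (median -0.96, against 0.00 over all genes tested), and 5 of them had O2-IC100 wholly below O2-PBS, as did 17.3% of all genes. The choice of the members favours this direction, so nothing is read from these counts and this median. In O2-IC100 against RA-PBS, 1 of 7 members was called without animal 10 (Tnnt2, higher), against 1.56% of all genes, and 0 with all 12 animals, where edgeR called 0 genes, 2183 had an unadjusted p-value under 0.05 and DESeq2 called 280. The median of the members there was 0.34, against 0.02 over all genes. Tnnt2 and Des were the 2 members with O2-IC100 wholly above RA-PBS, as were 5.18% of all genes.

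Of 26 other structural genes of smooth muscle, 13 were called higher in O2-PBS than in RA-PBS and 0 lower without animal 10 (median log2 difference 0.61), where 4.09% of all genes were called higher, and 2 with all 12, where 0.782% were. This list and those that follow were chosen with earlier results known. Actg2, smooth muscle gamma actin, was close to absent in room air. It had 1 count in all 4 RA-PBS retinas together, and 52, 18, 15 and 29 counts in O2-PBS animals 5 to 8, a ratio of 120.5 after normalization with an exact 95% interval of 21.2 to 4799 that covers counting error only. In O2-IC100 it had 8, 10, 2 and 25 counts, above RA-PBS in each animal and called without animal 10. Its fitted fold changes depend on the prior count and are not given. Tpm2, Cnn2 and Pdlim3, which encode a tropomyosin, a calponin and an actin-associated LIM protein, were higher in O2-PBS by 1.64, 1.41 and 1.27. Against O2-PBS, 5 of the 26 were called lower in O2-IC100 without animal 10 and 0 higher, where 0.731% of all genes were called lower. Tpm2 was at -1.23, Myh9 at -0.93, Smtn at -0.84 and Flna at -0.77, and 0 were called with all 12. With animal 10 the values of Tpm2, Myh9, Smtn and Flna were 0.16, -0.58, -0.30 and -0.63, so that of Tpm2 turned. With the Y-linked covariate and without animal 10, 0 of the 26 were called. Myl12a and Myl12b, near relatives of Myl9, were at 0.94, called, and at -0.24, not called, in O2-PBS against RA-PBS without animal 10.

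Of 15 genes that control contraction, only Ednra, the endothelin receptor that constricts vessels, and Kcnmb1, a potassium channel subunit of smooth muscle, were called higher in O2-PBS without animal 10, by 1.99 and 1.71, and the median of the list was 0.11. Ednra was at 2.47 to 3.67 CPM in RA-PBS, 10.7 to 13.3 CPM in O2-PBS and 5.81 to 10.4 CPM in O2-IC100, 3 groups that did not overlap in these scaled values. Its rise in O2-IC100 over RA-PBS was called without animal 10 (1.32 on the log2 scale). Srf, which encodes serum response factor, and Myocd, its coactivator myocardin, were not called (0.14 and 0.64). In O2-IC100 against O2-PBS 0 of 15 were called by edgeR, with or without animal 10.

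No troponin partner of Tnnt2 and no other striated muscle gene was called with it by edgeR. Of 30 listed, 18 passed the filter, and 0 were called by edgeR in any comparison with or without animal 10, while DESeq2 called 1 in O2-PBS against RA-PBS without animal 10. The median log2 difference of O2-PBS from RA-PBS was 0.05. The highest was that of Myl1, a striated muscle light chain, at 2.84, which edgeR did not call. Tnnt1, the slow skeletal troponin T, was at -0.45, the cardiac genes Tnni3, Tnnc1, Myh6 and Myh7 at -0.39, -0.14, -0.33 and 0.20, and the striated actins Actc1 and Acta1 at 0.39 and 0.35. The list summed to 119 to 237 CPM in RA-PBS, 158 to 201 in O2-PBS and 133 to 147 in O2-IC100, overlapping between RA-PBS and both O2 groups. Most of that sum was Ryr2 and Actn2, at means of 109.9 and 28.9 CPM in RA-PBS, so it is not a measure of striated muscle. Tnnt3, the fast skeletal troponin T, did not pass the filter, and its counts were at most 2 except for 56 in O2-PBS animal 6 and 26 in O2-IC100 animal 10.

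**Figure D3:**
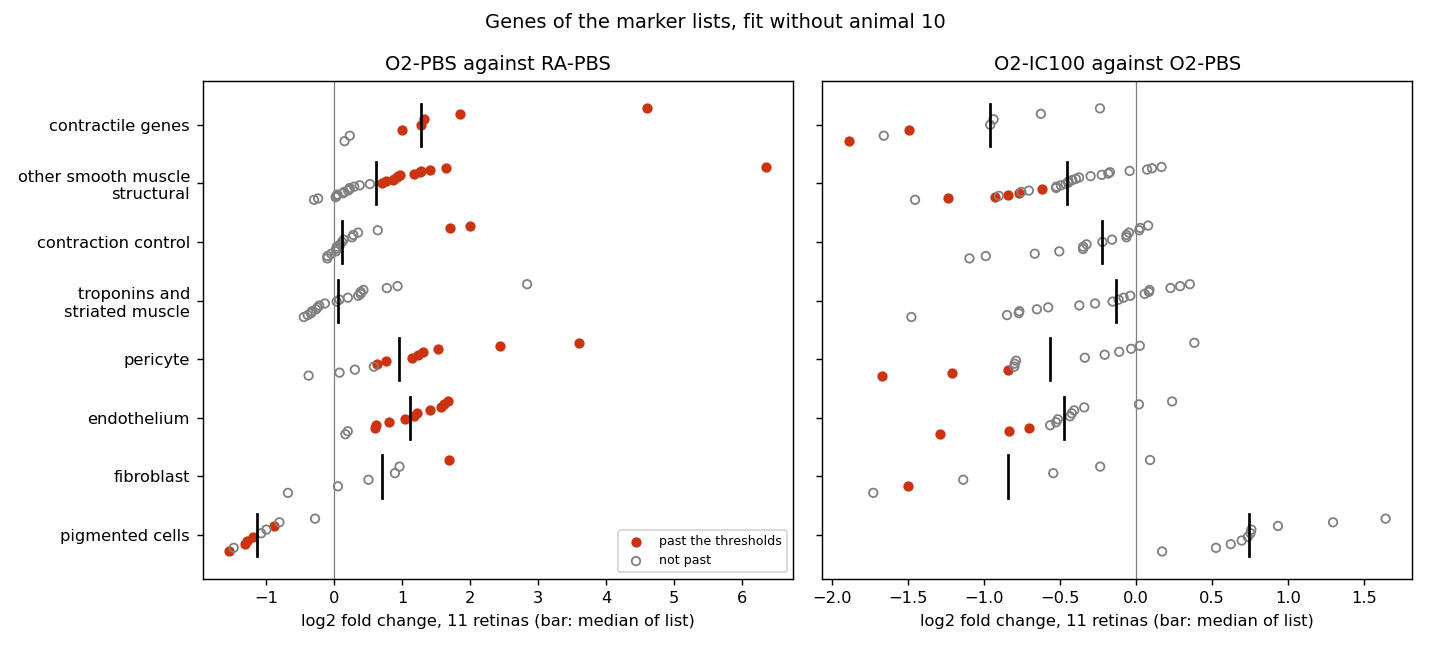
Log2 fold change of each tested gene of 8 lists in the edgeR fit without animal 10, for O2-PBS against RA-PBS and for O2-IC100 against O2-PBS; filled points passed the thresholds and bars are list medians. The contractile genes, pericyte and endothelial lists have medians of 1.28, 0.95 and 1.11 in the left panel, and the striated muscle list has 0.05 and no filled point.

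Pericyte and endothelial markers differed between the same groups as the members. Without animal 10, 8 of 12 pericyte markers were called higher in O2-PBS than in RA-PBS, led by Ndufa4l2 at 3.60, Cd248 at 2.44, Higd1b at 1.53 and Rgs5 at 1.31, and 10 of 12 endothelial markers were, with Cdh5 at 1.67 and Emcn at 1.61. Of all genes, 4.09% were called higher there. With all 12 animals 2 of each list were called, against 0.782% of all genes. The summed pericyte markers were 666 to 843 CPM in RA-PBS, 952 to 1161 in O2-PBS and 880 to 955 in O2-IC100 without animal 10. The RA-PBS mean of that sum was 741.7 CPM, where Rgs5 was at 110.1 and Ndufa4l2 at 4.67. Most of the sum thus came from markers other than those just named, and it does not measure those genes. The summed endothelial markers were 256 to 369, 527 to 604 and 373 to 420 CPM. Without animal 10 the fibroblast list had 1 of 6 tested genes called higher (Col3a1, 1.68). The pigmented list had 5 of 10 called lower and the lens list 13 of 13, where 2.18% of all genes were called lower. The summed lens genes were 7546 to 29957 CPM in RA-PBS animals 2 to 4. They were 11.0 CPM in RA-PBS animal 1 and 11.1 to 86.0 CPM in O2-PBS. In the rod and Y-linked lists 0 of 10 and 0 of 4 were called. The Y-linked median was -1.41 and both groups held high and low retinas, so the lack of a call does not show equal levels. The part of cell numbers in the members' differences was not tested.

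Of the 12 pericyte markers, 3 were called lower in O2-IC100 than in O2-PBS without animal 10, where 0.731% of all genes were, and 0 with all 12. The endothelial list likewise had 3 of 12 called lower without animal 10 (Vwf at -1.29, Cdh5 at -0.83 and Tie1 at -0.70) and 0 with all 12. Cd248, the surface protein endosialin, was at 1.85 to 3.05 CPM in RA-PBS, 8.45 to 17.4 in O2-PBS and 3.19 to 4.46 in O2-IC100, and it fell against O2-PBS by a log2 fold change of -1.67 without animal 10 (-1.73 with it, not called). Cspg4, the NG2 proteoglycan, was at -1.21 and Abcc9, a potassium channel subunit, at -0.84, and both were called lower without animal 10, where the values with it were -0.63 and -1.14. Rgs5, a regulator of G-protein signalling abundant in pericytes, was at 235, 239 and 278 CPM in O2-IC100 animals 9, 11 and 12, within the O2-PBS range of 238 to 344 CPM but for animal 9, and above all RA-PBS retinas (92.2 to 143 CPM). Its values without animal 10 were -0.11 against O2-PBS, not called, and 1.20 against RA-PBS, called, and with it -0.49 and 0.82, not called. Des therefore stood near its RA-PBS level in the same 3 retinas in which Rgs5 stood near its O2-PBS level. Whether Des and Rgs5 differ in their response was not tested.

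In animal 10 the marker lists moved apart. Its CPM are raised by its scaling factor of 0.324, and a rank as highest can depend on that factor. Its summed pericyte markers were 354 CPM and its endothelial markers 73.5 CPM, below every other retina. Its Rgs5, a small part of that pericyte sum, was at 26.0 CPM. Its fibroblast markers summed to 448 CPM, against 28.4 to 122.9 CPM elsewhere, and the other smooth muscle structural genes to 4154 CPM, against 1123 to 1813 CPM. Of the 12 pericyte markers, 4 were highest of all retinas in animal 10 (Pdgfrb, Cspg4, Anpep and Rgs4) and 5 were lowest (Rgs5, Kcnj8, Abcc9, Vtn and Higd1b). Pdgfrb, the receptor that marks mural cells, was at 57.1 CPM, against 13.0 to 42.1 CPM elsewhere. Its 452 counts of 24438082 were a smaller share of the total than the 699 of 14907143 in O2-PBS animal 5. All 8 fibroblast markers were highest in it, and 11 of 12 endothelial markers were lowest. The source of the high normalized Acta2, Tagln, Myh11 and Myl9 of animal 10 was not tested.

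**Figure D4:**
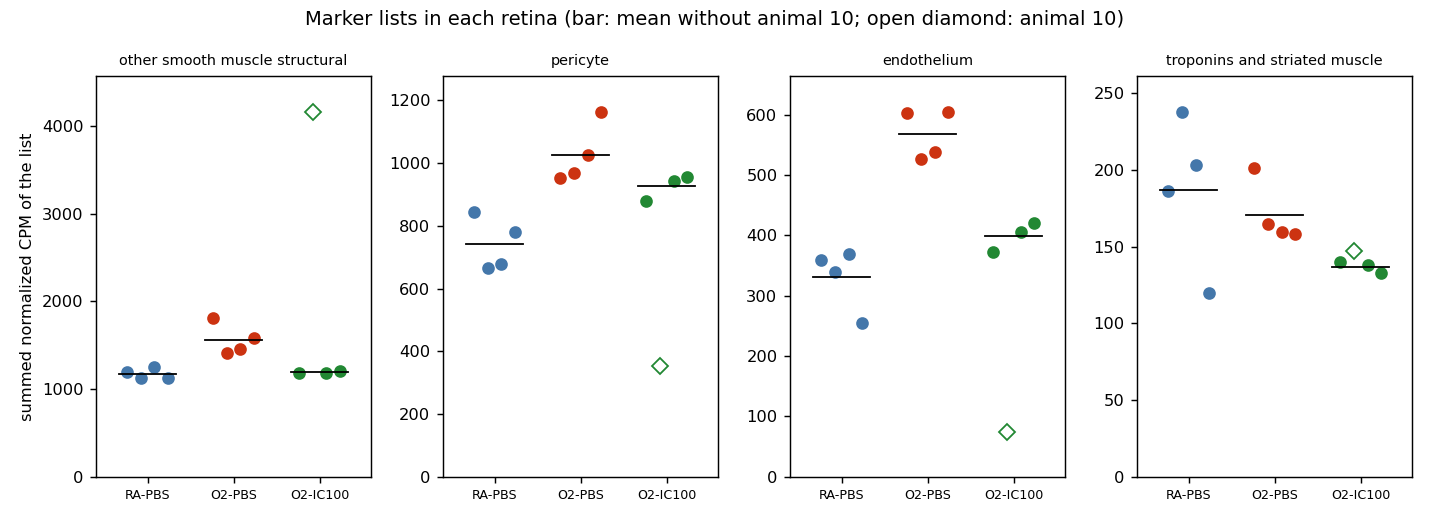
Summed normalized CPM of the other smooth muscle structural genes, the pericyte, endothelial and striated muscle lists in each retina by group, with bars at the group means without animal 10 (open diamond). O2-PBS retinas are above RA-PBS retinas for the first 3 lists. The pericyte sum is mostly of markers other than Rgs5. In these scaled values animal 10 is highest for the first list and lowest for the pericyte and endothelial lists.

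Across the 11 retinas without animal 10, the genes outside the list whose log2 CPM followed Tnnt2 most closely were Col5a3 (Pearson's r = 0.993), Capg (0.989), Ecel1 (0.983), Top2a (0.980) and Impg2 (0.980), and 159 genes exceeded 0.9. Before the log, 0.1 CPM was added. With animal 10 their r fell to 0.762, 0.918, 0.856, 0.899 and 0.423 in that order. For Acta2 the closest genes were Ppm1f (0.95), Col4a2 (0.949), Col4a1 (0.931), Hspg2 (0.929) and Slc4a4 (0.912), and 12 genes exceeded 0.9. With animal 10 their r was 0.933, 0.978, 0.975, 0.973 and 0.966. The points share the 3 groups, so a gene that differs between groups in the same order scores high, and the values are a description. Capg, an actin filament capping protein, was at 0.961 ± 0.601 CPM in RA-PBS, 7.43 ± 0.852 in O2-PBS (SD, n = 4) and 3.23 ± 0.133 in O2-IC100 without animal 10 (n = 3). Col4a1, a collagen of vascular basement membranes, was at 131.2 ± 78.6, 335.7 ± 93.1 and 131.8 ± 13.7 CPM in the same groups. The genes picked for Tnnt2 were at an intermediate level in O2-IC100. Those picked for Acta2 had an O2-IC100 mean near or below that of RA-PBS. Both follow from picking the genes by likeness and add nothing to the values of Tnnt2 and Acta2.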

How the data were processed

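Retinal polyA RNA of 12 mice was sequenced as paired-end reads. The deposited values are expected counts per gene with no normalization, which the authors estimated with Kallisto (GRCm39_104) and tximport. After rounding they were fitted with edgeR 4.0.16 under R 4.3.3 (TMM, filterByExpr, robust quasi-likelihood F test, 3 groups in 1 fit), with Benjamini-Hochberg adjustment over all genes tested. DESeq2 1.42.0 was an alternative. Expected counts are split between near-identical transcripts by the estimator, and 1.39% of the 31-base words of Acta2 and less for the other members occur in other genes. The table lists Ensembl identifiers, and symbols were found for 35374 of 36131. Exon lengths are unions of all annotated exons of a gene in GRCm38. The members and marker lists were chosen with earlier results of these data known. Named list genes are up to 4 per list and comparison with the largest fold change among those called without animal 10, or the 2 most abundant if none was called, with relatives of the members and the 5 genes most like Tnnt2 and Acta2. The exceptions are Srf and Myocd, Rgs5 in O2-IC100 against O2-PBS, Myl1, Tnni3, Tnnc1, Myh6 and Myh7, and the pericyte markers named in animal 10, which were added after their values were seen. Replicates are separate mice per the labels. The procedure was tested on simulated data.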

Additional observations from a re-analysis of the deposited data

Results flagged for a closer look

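In groups of 4, a retina was singled out where its gap to the nearest other, as a share of the group's range, exceeded Dixon's 95% critical value ( 30 groups examined, of which chance gives about 1 in 20). O2-IC100 animal 10 was singled out for Acta2 at 523.9 CPM, Tagln at 22.7 CPM, Myh11 at 54.4 CPM and Myl9 at 76.1 CPM, each above the other 3 O2-IC100 retinas, and for its crystallin share of 59.0% and rod share of 0.351%. Its CPM values here are raised by its scaling factor of 0.324. As a share of the total, its Tagln (180 of 24438082) was below that of animal 12 (151 of 17769778). O2-PBS animal 6 was singled out for a crystallin share of 0.0204%, which is small beside those of RA-PBS animals 2 to 4.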

How the results depend on the processing

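No paired analysis was possible because the labels give every animal its own number and no litter or batch. In O2-PBS against RA-PBS the counts of genes called were 133 with all 12 animals, 968 without animals 1 and 10 (a pair planned for lens RNA, although the crystallin share of animal 1 is low), 867 with only the 2 groups, 412 with DESeq2, 1171 with DESeq2 without animal 10, 886 with a Y-linked covariate and 3378 with a crystallin covariate, both without animal 10. The members called were 2, 4, 4, 2, 5, 4 and 4 in that order. DESeq2 with all 12 animals gave Acta2, Myh11 and Myl9 no p-value in any comparison, so it could not call them. In O2-IC100 against O2-PBS, genes called were 0, then 282 without animals 1 and 10, 112 and 394 with DESeq2, 46 with the Y-linked and 322 with the crystallin covariate, and members 0, 2, 2, 5, 1 and 4. In O2-IC100 against RA-PBS they were 0, 315, 280, 562, 435 and 1973, with 3 under upper-quartile scaling and 2 with no filter, and members 0, then 1 in each of the 5. Over all fits that left out animals the genes called ranged from 32 to 1343, 0 to 432 and 0 to 925 in the 3 comparisons, and the members called from 0 to 5, 0 to 5 and 0 to 2. Leaving out RA-PBS animal 2 from the 12 ended all member calls in the first comparison, and leaving out any of animals 9, 11 and 12 beside animal 10 ended them in the second. The cause was not tested.

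Directions that turned without animals 1 and 10, with DESeq2 without animal 10, with the Y-linked covariate and with the crystallin covariate, in that order, were those of Acta2 (-1.66, -1.68, -1.90 and -1.67), Myh11 (-0.96, -0.98, -1.53 and -0.96) and Myl9 (-0.63, -0.64, -0.70 and -0.62) against O2-PBS. Against RA-PBS they were those of Acta2 in the first 3 (-0.53, -0.36 and -0.45) and of Myh11 in all (-0.66, -0.75, -0.93 and -1.01). With the crystallin covariate Myh11 in O2-PBS against RA-PBS was at -0.047, and against RA-PBS in O2-IC100 Myl9 was at -0.045 and Mylk at 0.22, while Tnnt2 was at 7.85 in O2-PBS and 5.97 in O2-IC100 against RA-PBS. These values against RA-PBS lean on RA-PBS animal 1, since crystallin was low in it and in every O2 retina of that fit. Over the fits that left out animals, Acta2 ranged from -1.87 to 2.83 against O2-PBS and from -0.53 to 4.25 against RA-PBS, Myh11 from -1.33 to 2.05 and from -1.10 to 2.28, Myl9 from -0.80 to 0.90 against O2-PBS, and Mylk from -0.30 to 0.019 against RA-PBS. Counts under 3 in a library, as for Cnn1, limit what can be seen.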
